A study of Mus musculus with 6 samples.

Results

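The 10 genes described here are Atf4, the transcription factor of the integrated stress response, 7 genes known to be induced through it under stress (Ddit3, Trib3, Chac1, Asns, Sesn2, Ddit4 and Pck2), and the transsulfuration genes Cth and Cbs. They were selected by gene symbol from 22966 genes in the deposited count table; all 10 were found and all 10 passed the filter on low counts that left 14795 genes for testing. Earlier results of the same comparison were known when they were selected, so their differences between the groups are given as a description and support nothing. The libraries are RNA sequencing of primary hepatic stellate cells, the retinoid-storing pericytes of the liver sinusoid, from mice given the hepatotoxin carbon tetrachloride. There are 3 libraries titled Cre and 3 titled flox. The series concerns mice that lack butyrylcholinesterase in hepatocytes. All 6 libraries carry the same genotype entry, BucheHep, and the same CCl4 entry, so the groups rest on their titles alone. The promoter that drives Cre, the age of the mice, and whether a library is 1 animal or a pool were not stated in the sources read here. The p-values therefore refer to the variation among these 6 libraries, part of which may be technical.

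When amino acids run short, the endoplasmic reticulum is overloaded or mitochondria fail, kinases phosphorylate the translation factor eIF2. General protein synthesis then slows while the Atf4 mRNA is translated better, because its upstream reading frames no longer hold ribosomes back. ATF4 therefore acts largely through its protein, which RNA counts do not measure. With C/EBP partners it binds a composite element and switches on enzymes of amino acid synthesis, amino acid carriers and regulators of growth and death. Transsulfuration turns homocysteine into cysteine, the precursor of glutathione: cystathionine beta-synthase (Cbs) makes cystathionine and cystathionine gamma-lyase (Cth) splits it. Both enzymes are abundant in hepatocytes.

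The core of that composite element, TGATGNAA, was searched on both strands in RefSeq promoter windows of 250 bases before and 50 after a gene's start (build GRCm38.p6). It was chosen after the values were seen. Windows were found for 9 members, Cth being the other one. The element stood in 4 of these 9 windows, those of Asns, Chac1, Pck2 and Trib3, and in 3.97% of all 32851 windows. The windows of Atf4, Ddit3, Sesn2, Ddit4 and Cbs did not hold these letters. A match is a description of the letters and not a binding site. The stretches below are shown because these 4 genes can be read beside their levels; capitals mark the element, and each is written 5′ to 3′ on the strand of its gene. In Asns it began 23 bases before the RefSeq start, in the minus strand stretch chr6:7693214-7693243, and in Trib3 15 bases after it, in the minus strand stretch chr2:152344028-152344057. In Chac1 it began 193 bases before the start, in the plus strand stretch chr2:119350992-119351228, and in Pck2 103 bases before the start, in the plus strand stretch chr14:55540016-55540265. The GENCODE gene coordinates given below differ from RefSeq: by them the Asns stretch lies within the gene, and the Trib3 element lies before the start of Trib3.
Asns: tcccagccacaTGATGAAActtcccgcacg
Trib3: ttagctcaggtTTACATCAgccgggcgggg
Chac1: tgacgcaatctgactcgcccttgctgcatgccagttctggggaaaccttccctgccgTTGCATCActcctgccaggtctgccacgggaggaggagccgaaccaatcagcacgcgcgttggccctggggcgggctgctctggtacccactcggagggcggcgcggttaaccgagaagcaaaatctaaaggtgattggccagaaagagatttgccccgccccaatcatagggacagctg
Pck2: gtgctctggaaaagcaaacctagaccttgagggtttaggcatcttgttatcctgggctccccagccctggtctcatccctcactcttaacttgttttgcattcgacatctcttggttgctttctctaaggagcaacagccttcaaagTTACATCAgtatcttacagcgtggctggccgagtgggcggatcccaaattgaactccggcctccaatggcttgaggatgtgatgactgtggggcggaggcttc

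The libraries held 37273142 to 39377787 counts in Cre and 38452088 to 41006722 in flox, and 3 counts correspond to 0.0724 to 0.0862 CPM (counts scaled to library size, with TMM normalisation). Of 16 listed stellate cell markers, the collagen gene Col1a1 was at 490 to 836 CPM in Cre and 243 to 797 CPM in flox. Lrat, whose enzyme forms the retinyl esters these cells store, had 7 to 41 counts in Cre and 5 to 95 in flox, and Gfap had at most 4 counts in any library. The libraries also held RNA of other cells. The summed level of 16 macrophage and Kupffer cell markers was 2473 to 2938 CPM in Cre and 8129 to 22872 CPM in flox, and flox 3 was the lowest of the flox libraries. In log2 fold change, Cre over flox, 0 of these 16 markers were above 0. The edgeR test described below called 14 of the 16 lower in Cre, against 8.94% of all genes tested. Across genes, which do not count as replicates, the Spearman correlation was 0.992 between flox 1 and flox 2 but 0.970 and 0.959 between flox 3 and these, and 0.965 to 0.975 between flox 3 and the Cre libraries. Values for flox 3, and results without it, are therefore given below. In bulk libraries, fewer cells of a type and less RNA per cell cannot be told apart.

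Of the 10 members, the edgeR quasi-likelihood test called 4 higher in Cre (Cth, Asns, Pck2 and Ddit4) and 1 lower (Ddit3) at a Benjamini-Hochberg adjusted p below 0.05, and 5 did not pass. Across all genes tested, 6.35% were called higher and 8.94% lower, and nothing is read from the members' count since they were selected with this comparison known. For these 5 genes the groups did not overlap (39.6% of all genes tested), 4 with Cre above flox (19.6%) and 1 with Cre below flox (20.0%). The median log2 fold change, Cre over flox, was 0.74 over the 10 members and 0.01 over all genes tested. The genes that rose encode enzymes making asparagine, cysteine and phosphoenolpyruvate and the growth inhibitor Ddit4, while Atf4 itself did not pass and Ddit3 fell.

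**Figure D1:**
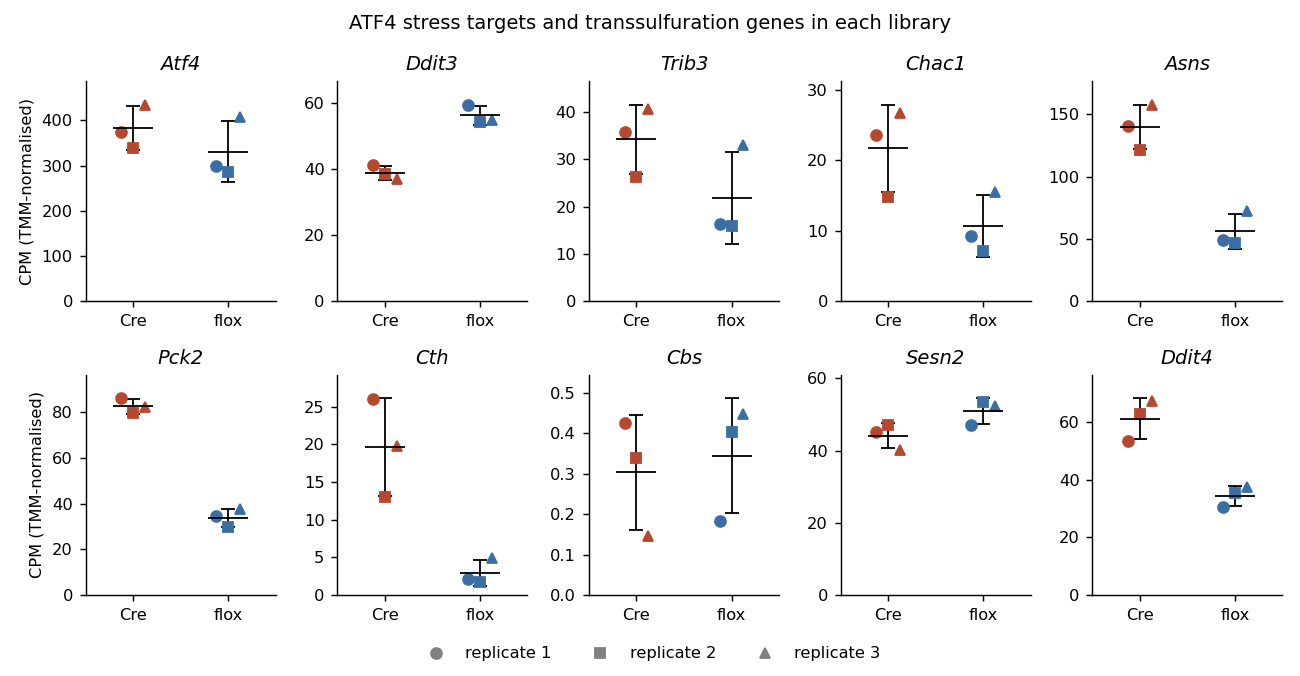
TMM-normalised CPM (vertical axis, from 0) of each of the 10 genes in the 3 Cre and 3 flox libraries; symbols are libraries, horizontal bars the group mean and error bars the SD (n = 3). Cth, Asns, Pck2 and Ddit4 lie higher in every Cre library and Ddit3 lower, while flox 3 lies inside or near the Cre range for Atf4, Trib3 and Chac1.

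Atf4 (chromosome 15, 80255184 to 80257541, GRCm38) encodes the factor through which the other stress genes are known to be induced. It stood at 374, 338 and 435 CPM in Cre 1, 2 and 3, against 299, 285 and 408 CPM in flox 1, 2 and 3. The groups overlapped, because flox 3 lay above Cre 1 and Cre 2. On the log2 scale Cre over flox was 0.21 ± 0.18 (SE, n = 3 each, edgeR adjusted p = 0.432), within the spread between replicates. Without flox 3 it was 0.39 ± 0.13 (edgeR adjusted p = 0.0598). Atf4 was by far the most abundant of the 10 transcripts per unit length, at 233 ± 27.0 FPKM in Cre and 183 ± 48.0 FPKM in flox (SD, n = 3), where FPKM also divide by transcript length.

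Ddit3 (chromosome 10, 127290774 to 127296288) encodes CHOP, the C/EBP family factor linked to cell death under prolonged stress. It stood at 41.2, 38.5 and 37.1 CPM in Cre 1, 2 and 3, against 59.5, 54.2 and 55.0 CPM in flox 1, 2 and 3. Every Cre library was below every flox library, and flox 3 lay with the other flox libraries. Ddit3 fell by 0.53 ± 0.10 on the log2 scale (edgeR adjusted p = 0.0255), a level 0.692 times that of flox. Scaled to library totals, which moves the median of all genes by 0.16, it was at -0.37 ± 0.11 (edgeR adjusted p = 0.0627), and the call ended when Cre 1, Cre 2, Cre 3, flox 1 or flox 2 was left out. Exons of Ddit3 overlap those of Mars and Gm4189 on the other strand, and whether counting used the strand was not stated, so their reads cannot be told apart.

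Trib3 (chromosome 2, 152337422 to 152344032) encodes a pseudokinase that is induced by ATF4 and CHOP and restrains both. It stood at 35.7, 26.3 and 40.7 CPM in Cre 1, 2 and 3, against 16.4, 16.0 and 33.0 CPM in flox 1, 2 and 3. Flox 3 lay above Cre 2, at 2.04 times the mean of flox 1 and flox 2, so the groups overlapped. The log2 fold change was 0.65 ± 0.32 (edgeR adjusted p = 0.202) and 1.09 ± 0.20 without flox 3 (edgeR adjusted p = 0.0107).

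Asns (chromosome 6, 7675169 to 7693254) encodes asparagine synthetase, and its RefSeq promoter window holds the element shown above. It stood at 140.5, 121.8 and 157.6 CPM in Cre 1, 2 and 3, against 49.3, 46.5 and 72.4 CPM in flox 1, 2 and 3. All Cre libraries lay above all flox libraries, the lowest of them at 1.68 times flox 3. Asns rose 2.50-fold, at 1.32 ± 0.20 on the log2 scale (edgeR adjusted p = 0.0237).

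Pck2 (chromosome 14, 55540266 to 55551242) encodes the mitochondrial enzyme that makes phosphoenolpyruvate from oxaloacetate. It stood at 86.0, 79.5 and 82.4 CPM in Cre 1, 2 and 3, against 34.4, 29.6 and 37.5 CPM in flox 1, 2 and 3. The Cre libraries differed among themselves by a factor of 1.08 at most, the least of the 10 genes, and the lowest stood at 2.12 times flox 3. Pck2 rose 2.44-fold, at 1.29 ± 0.12 on the log2 scale (edgeR adjusted p = 0.0226). Its exons overlap those of the antisense gene Gm10876. The cytosolic counterpart Pck1, a hepatocyte and kidney gene of gluconeogenesis, had 1 count in each Cre library, against 16, 5 and 6 counts in flox 1, 2 and 3, too few for the test.

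Cth (chromosome 3, 157894248 to 157925077) showed the widest difference of the 10 genes, 40th from the top of all genes tested by log2 fold change. It stood at 26.0, 13.0 and 19.8 CPM in Cre 1, 2 and 3, against 2.13, 1.75 and 4.95 CPM in flox 1, 2 and 3. The groups were apart by a factor of 2.63, between Cre 2 and flox 3, while the Cre libraries differed among themselves by up to 1.999 times. Cth rose 6.64-fold, at 2.73 ± 0.47 on the log2 scale (edgeR adjusted p = 0.0248), and at 3.34 ± 0.36 without flox 3. The partner enzyme Cbs (chromosome 17, 31608894 to 31637238) was barely detected, with 17, 14 and 6 counts in Cre 1, 2 and 3, against 7, 14 and 18 counts in flox 1, 2 and 3. Its log2 fold change of -0.18 ± 0.63 (edgeR adjusted p = 0.861) was within the spread between replicates and took either sign when 1 library was left out. In FPKM, Cth exceeded Cbs 90.9-fold, 57.3-fold and 201-fold in Cre 1, 2 and 3, against 17.2-fold, 6.48-fold and 16.4-fold in flox 1, 2 and 3, ratios that rest on the few Cbs counts.

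Hepatocyte RNA, a source of both transsulfuration transcripts, was measured beside these values. The summed level of 16 hepatocyte markers was 311, 95.4 and 458 CPM in Cre 1, 2 and 3, against 218, 358 and 727 CPM in flox 1, 2 and 3, with 0 of 14 tested markers called in either direction. Cre 2 had the lowest hepatocyte sum of the 6 libraries and flox 3 the highest, and Cth was higher in Cre 2 than in flox 3. At these libraries Cth went with that sum within the group: Cre 2 had the lowest Cth of Cre, at 13.0 CPM, and flox 3 the highest of flox, at 4.95 CPM. The other libraries ran the other way. Cre 3 had a higher sum than Cre 1 but less Cth, at 19.8 against 26.0 CPM. Flox 2 likewise had a higher sum than flox 1 but less Cth, at 1.75 against 2.13 CPM. The part of hepatocyte RNA in the difference was not tested.

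Chac1 (chromosome 2, 119351229 to 119354381) encodes an enzyme that breaks down glutathione. It stood at 23.5, 14.8 and 26.7 CPM in Cre 1, 2 and 3, against 9.32, 7.18 and 15.5 CPM in flox 1, 2 and 3. Flox 3 lay just above Cre 2, so the groups overlapped. At 1.02 ± 0.35 on the log2 scale it missed the threshold (edgeR adjusted p = 0.0905). It passed in DESeq2 (adjusted p = 0.0303), where 5 members were called higher against 13.4% of all genes, and 1 lower against 15.9%. Without flox 3 it was 1.40 ± 0.29 (edgeR adjusted p = 0.0156). In that fit 6 members, Trib3 and Chac1 joining the other 4, were called higher against 16.0% of all genes, and 1, Ddit3, lower against 18.8%.

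Ddit4 and Sesn2 both encode stress-induced inhibitors of mTORC1, the kinase complex that couples nutrients to growth, and they differed in how they moved. Ddit4 (chromosome 10, 59949669 to 59951834) stood at 53.5, 62.7 and 67.3 CPM in Cre 1, 2 and 3, against 30.5, 35.3 and 37.3 CPM in flox 1, 2 and 3. Every Cre library exceeded every flox library, and Ddit4 rose 1.78-fold, at 0.83 ± 0.13 on the log2 scale (edgeR adjusted p = 0.0241). Sesn2 (chromosome 4, 132492032 to 132510501), which also senses leucine, stood at 45.1, 47.1 and 40.3 CPM in Cre 1, 2 and 3, against 47.0, 53.5 and 52.4 CPM in flox 1, 2 and 3. The groups overlapped by a narrow margin, Cre 2 lying just above flox 1, and the log2 fold change was -0.21 ± 0.11 (edgeR adjusted p = 0.232). The difference between both genes' fold changes was not tested.

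**Figure D2:**
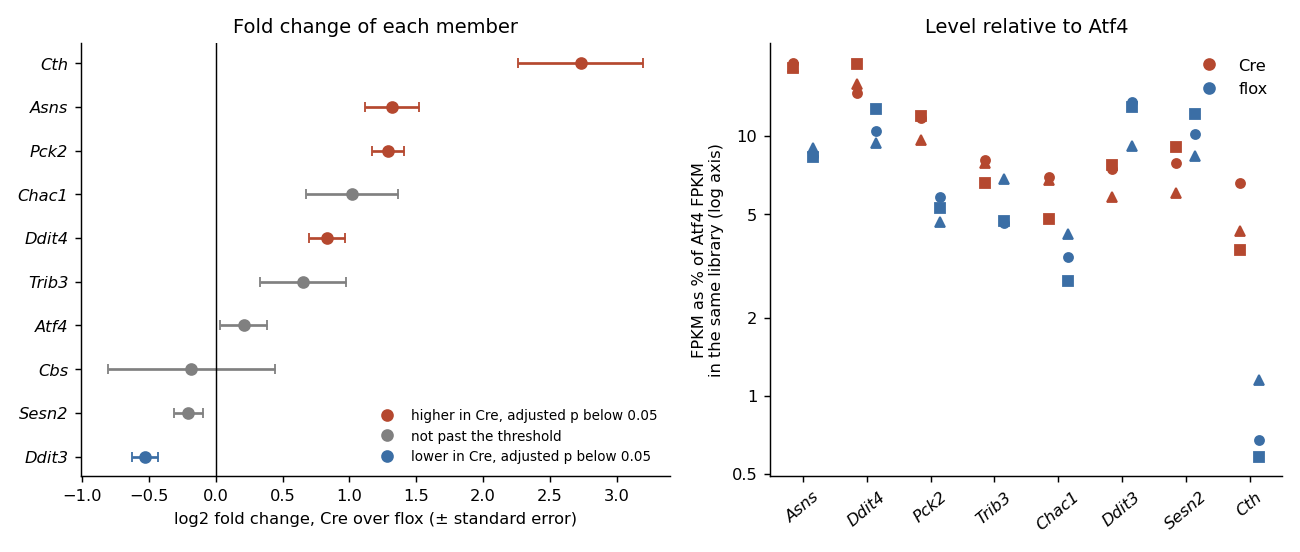
Left, log2 fold change of each gene, Cre over flox, with its standard error and edgeR call, from 2.73 for Cth to -0.53 for Ddit3; right, FPKM of 8 genes as a percentage of Atf4 FPKM in the same library on a log axis (circles, squares and triangles are replicates 1, 2 and 3). Relative to Atf4, Asns, Ddit4, Pck2, Chac1 and Cth lie higher in every Cre library and Ddit3 lower. The share of all genes that do so was not counted.

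Set against Atf4 in the same library, a ratio that does not depend on how libraries are scaled, the members changed unequally. Asns amounted to 19.1%, 18.3% and 18.4% of Atf4 FPKM in Cre 1, 2 and 3, against 8.36%, 8.26% and 9.01% in flox 1, 2 and 3. Flox 3, high in both genes, was thus close to the other flox libraries in their ratio. Ddit3 amounted to 7.49%, 7.74% and 5.80% of Atf4 in Cre 1, 2 and 3, against 13.5%, 12.9% and 9.18% in flox 1, 2 and 3. Chac1, whose CPM overlapped, stood at 4.81% to 6.93% of Atf4 in Cre and 2.77% to 4.20% in flox, without overlap. Trib3 still overlapped, at 6.56% to 8.04% in Cre and 4.61% to 6.82% in flox. These ratios are a description of the same counts and were not tested. How many of all genes fail to overlap in their ratio to Atf4 was not counted, so nothing is read from the lack of overlap.

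Per unit length the order of the 10 transcripts differed between the groups. In Cre, Atf4 was followed by Asns at 43.4 ± 5.15 FPKM, Ddit4 at 38.3 ± 3.83 FPKM and Pck2 at 25.7 ± 1.27 FPKM. Asns and Ddit4 overlapped in Cre, and Trib3, Sesn2, Ddit3, Chac1 and Cth, from 17.6 down to 11.4 FPKM on average, each overlapped the next. In flox, Ddit3 came second at 21.0 ± 1.43 FPKM and overlapped Ddit4 at 19.4 ± 2.80 FPKM, which overlapped Sesn2 at 18.2 ± 1.73 FPKM. Asns was the fifth there, at 15.7 ± 4.96 FPKM, followed by Trib3 at 10.2 ± 5.19 FPKM, Pck2 at 9.46 ± 1.62 FPKM and Chac1 at 6.55 ± 3.06 FPKM, each overlapping the next. Cth, at 1.57 ± 1.02 FPKM in flox, lay below all of these, and Cbs was last in both groups, at 0.119 ± 0.0573 FPKM in Cre and 0.121 ± 0.0531 FPKM in flox.

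**Figure D3:**
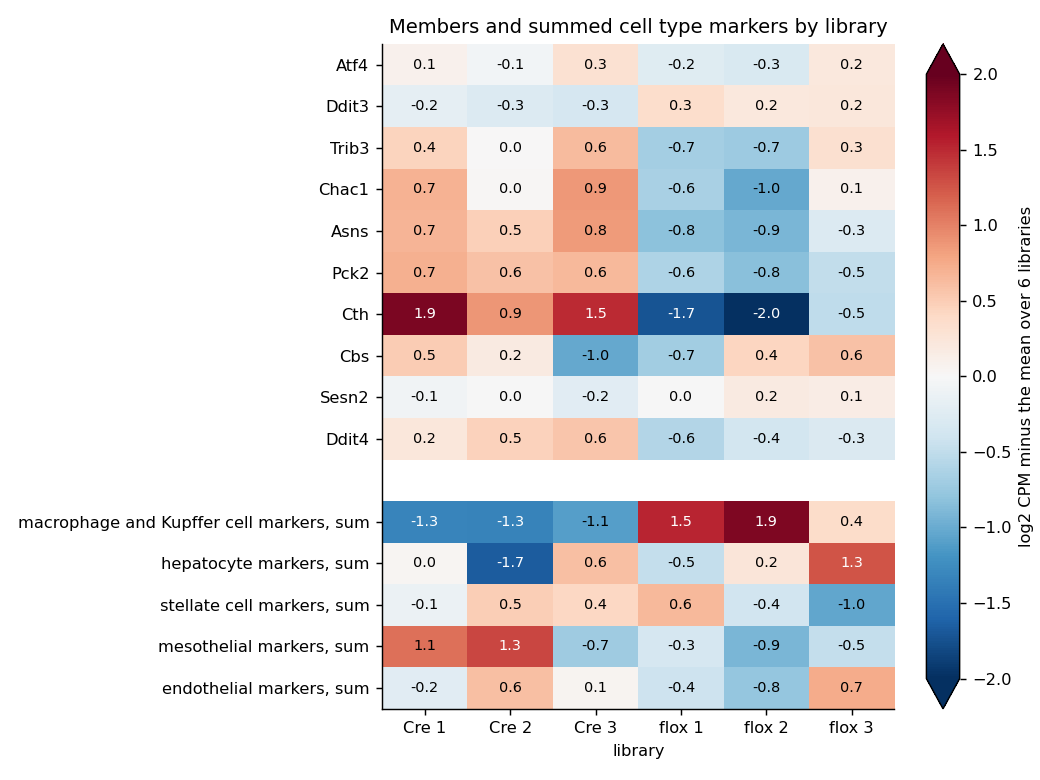
Log2 CPM of each gene, and log2 of the summed CPM of 5 cell type marker lists, minus the mean over the 6 libraries (colour and number), with Cre libraries left of flox libraries. Flox 3 stands nearer to the Cre libraries than flox 1 and flox 2 do for Atf4, Trib3, Chac1, Asns and Cth. By a smaller margin it does so for Pck2 and Ddit4. It also does so for the macrophage sum, at 0.4 against 1.5 and 1.9.

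Within flox, flox 3 had the highest level of 8 of the 10 members, as it did for 39.5% of all genes tested. It stood at 2.55 times the mean of flox 1 and flox 2 for Cth, 1.88 times for Chac1, 1.51 times for Asns and 1.39 times for Atf4, but at 1.17 times for Pck2, 1.13 times for Ddit4 and 0.967 times for Ddit3. The macrophage marker sum, in contrast, was lowest in flox 3, at 17974, 22872 and 8129 CPM in flox 1, 2 and 3. Between the groups it was lower in Cre, the way Ddit3 went and opposite to the 4 members called higher. Its part in these results was not tested. Mesothelial markers summed to 710, 842 and 203 CPM in Cre 1, 2 and 3, against 263, 177 and 238 CPM in flox 1, 2 and 3. All 9 mesothelial markers had a log2 fold change above 0, with a median of 1.42, and edgeR called 0 of them. Cth and Pck2 were highest in Cre 1, and Asns, Atf4, Trib3, Chac1 and Ddit4 in Cre 3, the Cre library with the lowest mesothelial sum. The part of mesothelial RNA was not tested. Stellate marker sums of 1508, 2318 and 2180 CPM in Cre 1, 2 and 3, against 2566, 1259 and 796 CPM in flox 1, 2 and 3, overlapped. Of 15 tested stellate markers 3 were called higher (Lox at 1.47, Timp1 at 1.199 and Hand2 at 1.07 on the log2 scale) and 0 lower (6.35% and 8.94% of all genes tested). The log2 fold changes of these 15 markers ran from -1.36 for Lrat to 1.47 for Lox, and 11 were above 0. Their part was not tested. Also overlapping were endothelial sums of 3463, 6120 and 4196 CPM in Cre 1, 2 and 3, against 3022, 2365 and 6753 CPM in flox 1, 2 and 3. Flox 3 thus had the highest endothelial sum of all libraries. The part of endothelial RNA was not tested.

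Genes outside the 10 that ATF4 is known to induce were counted next. Like all lists here, theirs was chosen with earlier results of these data known, so its counts are a description and support nothing. Of 44 tested genes in a list of 45, 20 rose in Cre and 1 fell (6.35% and 8.94% of all genes tested), and 36 of the 44 had a log2 fold change above 0, with a median log2 fold change of 0.68 against 0.01 over all genes tested. The 4 of lowest p belong to serine and one-carbon metabolism. The mitochondrial folate enzyme Aldh1l2 rose to 52.2 ± 3.41 CPM in Cre, against 13.1 ± 1.93 CPM in flox (SD, n = 3), at 1.999 ± 0.14 on the log2 scale. Its exons overlap those of D10Wsu102e. Phgdh and Psat1, the first enzymes of serine synthesis, rose by 1.52 ± 0.16 and 1.40 ± 0.14, and the folate enzyme Mthfd2 by 0.92 ± 0.11 on the log2 scale (edgeR adjusted p of 0.0226 to 0.0237 for these 4).

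The list was uneven when grouped by role, a grouping made after the values were seen. Of all genes tested, 6.35% were called higher and 8.94% lower. All 6 serine, glycine and folate enzymes rose, from 0.92 to 1.999 on the log2 scale. Of 9 amino acid transporters 6 rose, and the 9 ran from -0.41 to 1.62 with a median of 1.13. Of 6 aminoacyl-tRNA synthetases 1 rose, Gars at 0.71 ± 0.13, though all 6 were above 0 (median 0.37). Of the 6 transcription factors and cofactors 1 rose, Atf5 at 0.78 ± 0.16 (edgeR adjusted p = 0.0284), whose exons overlap those of Il4i1 and Nup62. Atf3, a stress factor that partners CHOP and ATF4, was at -0.62 ± 0.17 (edgeR adjusted p = 0.0577), with every Cre library below every flox library. Cebpg, an ATF4 partner, was at -0.02 ± 0.10 and the stress cytokine Gdf15 at -0.57 ± 0.30 (edgeR adjusted p of 0.890 and 0.223). The cell cycle inhibitor Cdkn1a fell by 0.55 ± 0.14 on the log2 scale (edgeR adjusted p = 0.0452) and is also a p53 target. It is the 1 gene of the list called lower, and the list had 0 lower with library totals, limma-voom, no count filter and the 3 FPKM settings.

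**Figure D4:**
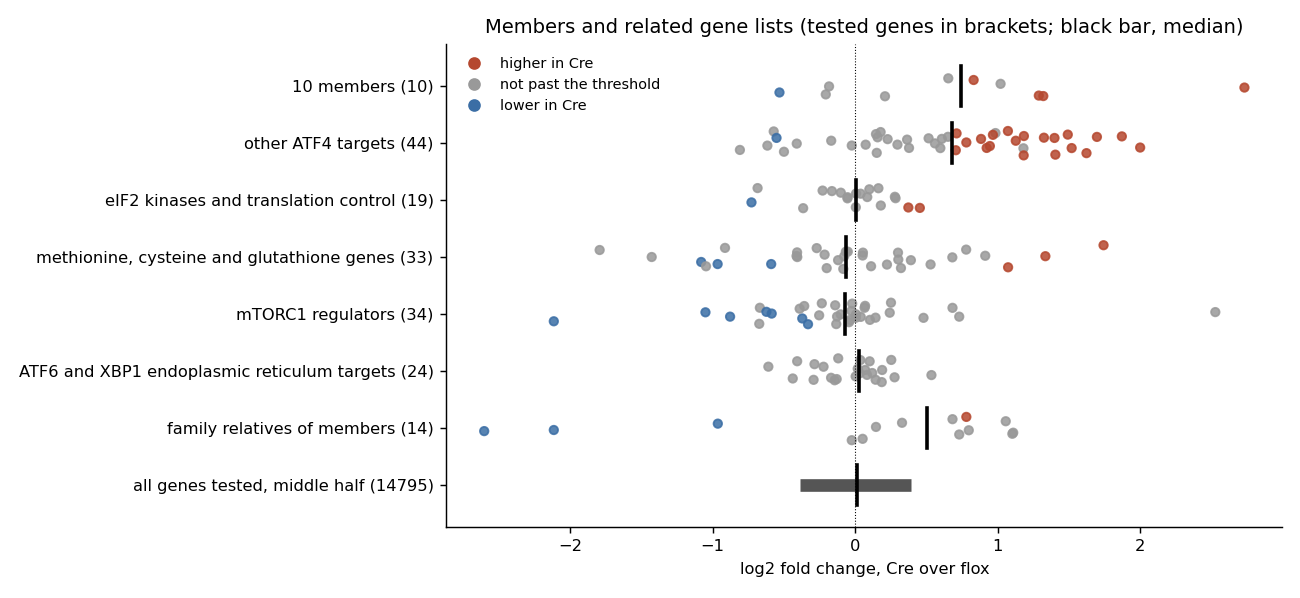
Log2 fold change, Cre over flox, of each tested gene in the 10 members and 6 related lists (points, coloured by edgeR call; black bars, medians), above the interquartile range of all 14795 genes tested. The ATF4 target list has a median of 0.68, while the lists of eIF2 control, methionine and glutathione genes, mTORC1 regulators and ATF6 and XBP1 targets have medians from -0.07 to 0.03. All lists were chosen with earlier results of these data known.

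Genes upstream of ATF4 were called at about the share of all genes. Of 19 tested genes for eIF2 kinases, eIF2, its exchange factor and its phosphatases, 2 rose and 1 fell (6.35% and 8.94% of all genes tested), with a median of 0.01, and limma-voom called 0 in either direction. Eif2ak4, which encodes the amino acid sensing kinase GCN2, fell by 0.73 ± 0.17 on the log2 scale. The eIF2 subunits Eif2s3x and Eif2s2 rose by 0.45 ± 0.11 and 0.37 ± 0.09 (edgeR adjusted p of 0.0390 to 0.0429 for these 3). Eif2s3x has a close copy on the Y chromosome, so its counts are uncertain. Oma1, the mitochondrial protease that relays mitochondrial stress, was at -0.68 ± 0.23 (edgeR adjusted p = 0.0907). These are transcript levels, and phosphorylation of eIF2 was not measured. Of 24 tested targets and sensors of ATF6 and XBP1, the other branches of the unfolded protein response, 0 were called by edgeR, with a median of 0.03. Those of lowest p were Ern1 at 0.54 ± 0.17, Derl2 at -0.29 ± 0.10, Xbp1 at -0.44 ± 0.19 and Syvn1 at -0.29 ± 0.13 (edgeR adjusted p of 0.0728 to 0.158). Exons of Derl2 overlap those of Mis12 and those of Syvn1 overlap Mrpl49.

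Around transsulfuration, the methionine cycle and glutathione genes moved in both directions. Of 33 tested, 3 rose and 3 fell (6.35% and 8.94% of all genes tested), with a median of -0.07, or 0.098 with library totals. Ahcy, which makes the homocysteine that transsulfuration uses, rose by 1.07 ± 0.21 on the log2 scale, to 99.3 ± 23.4 CPM in Cre, against 47.2 ± 6.84 CPM in flox. The methionine salvage enzyme Mtap rose by 1.33 ± 0.22 and the nicotinamide methyltransferase Nnmt by 1.74 ± 0.31 (edgeR adjusted p of 0.0241 to 0.0264 for these 3). The glutathione synthesis genes Gclc at 0.05 ± 0.29, Gclm at 0.30 ± 0.27 and Gss at -0.08 ± 0.17 did not pass. Chac2, the constitutive relative of Chac1, was at 0.05 ± 0.22 (edgeR adjusted p = 0.890).

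Of 34 tested mTORC1 regulators edgeR called 0 higher and 7 lower (6.35% and 8.94% of all genes tested), with a median of -0.07. The count lower was 3 with library totals, where the median was 0.08, 3 on FPKM, 4 with no count filter and 2 in limma-voom. Sesn1, a p53-induced relative of Sesn2, fell by 2.11 ± 0.44 on the log2 scale (edgeR adjusted p = 0.0305). It stood at 13.0, 14.3 and 9.66 CPM in Cre 1, 2 and 3, against 59.1, 78.4 and 22.7 CPM in flox 1, 2 and 3. Flox 3 was again the flox library nearest to Cre, and the order of the flox libraries was that of the macrophage sum. The order of the Cre libraries was the reverse of that sum's, at 2516, 2473 and 2938 CPM in Cre 1, 2 and 3. The part of macrophage RNA in the Sesn1 difference was not tested. Lamtor1, an anchor of the complex at the lysosome, the arginine sensor relative Castor2 and the folliculin partner Fnip2 fell as well, with log2 fold changes of -0.62 ± 0.12, -1.05 ± 0.22 and -0.59 ± 0.14 (edgeR adjusted p of 0.0278 to 0.0427). Exons of Lamtor1 overlap those of Lrrc51. Among other relatives, Trib1, at -0.96 ± 0.13, and Cebpa, the C/EBP factor of myeloid cells and hepatocytes, at -2.60 ± 0.45, fell (edgeR adjusted p of 0.0237 and 0.0250), while Trib2 was at 0.80 ± 0.30, Sesn3 at 0.68 ± 0.45, Ddit4l at 0.73 ± 0.80 and pyruvate carboxylase, Pcx, at 1.102 ± 0.31 (edgeR adjusted p of 0.0563 to 0.549). Exons of Cebpa overlap those of the antisense gene Gm45091. The related gene list had 1 of 14 tested genes higher and 3 lower, with a median of 0.51.

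Leaving out Cre 1, Cre 2, flox 1 or flox 2 left 0 of all genes past the threshold in edgeR, and so ended the calls of Asns, Pck2, Cth and Ddit4, at adjusted p of 0.0644 to 0.107. At an unadjusted p below 0.05 these 4 fits had 3562 to 3978 genes and 5 or 6 of the 10 members. Leaving out flox 3 or Cre 3 kept all 4 calls.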

How the data were processed

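The mRNA-seq libraries of primary mouse hepatic stellate cells comprised 3 titled Cre and 3 titled flox. The authors deposited whole-number counts per gene and FPKM values for the same libraries; per the submitters' processing notes GRCm38, mm10 and hg38 are listed, with no role. Aligner, counter, annotation and cell sorting were not stated. The deposited FPKM followed from the counts with 1 transcript length per gene: 0 of the 11560 genes that exceeded 50 counts in all 6 libraries departed by more than 1e-06. No further per-sample columns were left unused.

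Counts were tested with edgeR 4.0.16 (filterByExpr with a minimum count of 10, TMM, quasi-likelihood F test, Benjamini-Hochberg adjustment over 14795 genes, R 4.3.3), and the code was tested on simulated data. Alternatives were DESeq2 1.42.0, limma-voom (limma 3.58.1), scaling by RLE or by library totals, other count filters, limma-trend on log2(FPKM + 1) and log2(FPKM + 0.1), a replicate block and leaving out each library. The members, gene lists and tests were chosen with earlier results of these data known. All members, the 4 genes of lowest edgeR p per pathway list and relatives of members are named, except 1 that is not reported here; Gars, Atf3, Cebpg, Gdf15, Cdkn1a, Gclc, Gclm, Gss, Col1a1, Lrat, Gfap, Lox, Timp1 and Hand2 were chosen after their values were seen. Coordinates are GRCm38 (GENCODE M21) and promoters RefSeq (GRCm38.p6). A floor of 3 counts covers counting error only.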

Additional observations from a re-analysis of the deposited data

How the results depend on the processing

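Outside the replicate block and the fits without 1 library, Asns, Cth, Ddit4 and Pck2 stayed past the threshold in every alternative; Ddit3 did not with library totals or the 3 FPKM settings, which left 0 members lower. Against 940 genes higher and 1323 lower in edgeR, library totals gave 1415 higher, DESeq2 1976 and 2358, and limma-voom 578 and 826. The share called higher was 41.5%, against 57.0% with library totals and 57.7% to 59.6% on FPKM. Leaving out 1 library gave 0 to 2447 genes higher, 0 to 2882 lower, 0 to 6 members higher and 0 to 1 lower. Cbs ranged from -0.48 to 0.16 and Chac2 from -0.072 to 0.16 on the log2 scale in these fits, and the cause was not tested. Cbs had no value with at least 1 CPM in 3 libraries or a mean FPKM of at least 1. Members at a few counts are limited by depth, as for Cbs.

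Same-numbered libraries did not deviate together (r of -0.03, -0.10 and -0.06), so these values give no sign that the numbers pair the samples. With 3 libraries per group they cannot show that the samples were unpaired. With the replicate block edgeR called 0 genes higher and 0 lower, with 0 members in either direction, while 4296 genes and 7 members had an unadjusted p below 0.05.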
